A study of Mus musculus with 62 samples.

Results

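Striatal projection neurons release small peptides that are cut from larger precursor proteins, and the RNAs of 5 of these precursors, Penk, Pdyn, Tac1, Cartpt and Nts, are described here. They were taken by name, through their Ensembl identifiers, from a table of 48795 genes, and all 5 were found and passed the filter on low counts in every set of libraries. Penk is ENSMUSG00000045573 (mm10, chr4:4133531-4138819, minus strand), Pdyn is ENSMUSG00000027400 (chr2:129686565-129699844, minus strand) and Tac1 is ENSMUSG00000061762 (chr6:7554879-7565834, plus strand). Cartpt is ENSMUSG00000021647 (chr13:99898489-99901091, minus strand) and Nts is ENSMUSG00000019890 (chr10:102481756-102490486, minus strand). In the annotation the only gene that overlaps any of them is A830012C17Rik, on the strand opposite to Penk. It held 426 counts over all 62 libraries, against 1399066 for Penk.

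The study lowered mutant huntingtin (mHTT), the product of the Huntington's disease gene, with zinc finger protein (ZFP) repressors carried by adeno-associated viruses (AAV). Striatal RNA was sequenced from mice of 4 genotypes, giving 62 libraries in 16 groups. R6/2 mice, a transgenic line carrying a fragment of mutant human HTT, and NCAR mice, a label that the sources used here do not expand, received PHP.eB AAV at 4 weeks of age and gave bulk striatal RNA at 11 weeks. Their groups were R6/2 with A-ZFP (3 libraries), NCAR with A-ZFP (4), R6/2 and NCAR with A-Delta (4 each), R6/2 and NCAR with N-ZFP (4 each) and R6/2 and NCAR with N-Delta (4 each). zQ175 mice, a knock-in strain that has an expanded repeat in their own Htt gene, and wild-type (WT) mice received an AAV in the striatum at 6 months and were sampled at 12 months. They gave bulk libraries (zQ175 with N-ZFP 4, WT with N-ZFP 3, zQ175 and WT with N-Delta 4 each) and neuronal libraries, which the column names call IP (4 in each of the same groups). A-ZFP and N-ZFP are the active repressors, A-Delta and N-Delta their control viruses, so every animal had a virus and no group was uninjected. Libraries of A viruses carry the cell type label astrocyte and those of N viruses the label neuron, while the treatment text calls the N viruses given to R6/2 mice astrocytic; the promoters were not stated. Nothing in the labels says that libraries of a group came from separate animals, so p-values measure the spread between these libraries.

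As background, projection neurons of the indirect pathway, which project to the external pallidum and carry the dopamine receptor Drd2, make Penk. Those of the direct pathway, which project to the substantia nigra and internal pallidum and carry Drd1, make Pdyn and Tac1. Enkephalins act mainly on delta and mu opioid receptors, dynorphins on the kappa receptor, and substance P on the receptor encoded by Tacr1. Cartpt, the precursor of the CART peptides, and Nts, the precursor of neurotensin, are made by subsets of striatal neurons and more strongly in the hypothalamus and its surroundings. Loss of striatal Penk RNA is a long known feature of Huntington's disease models.

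The precursors differ in what they can be cut into, and short coding stretches show why Penk and Pdyn both count as opioid genes while Tac1 does not. Each stretch below was read 5′ to 3′ from the annotated transcript, with the codons of the named peptide, or of its shared end, in capitals and the flanking bases in lower case. The Penk precursor of 268 residues holds the sequence of Met-enkephalin 6 times, of which the first and the last are shown, and that of Leu-enkephalin 1 time. The last is followed by codons for arginine and phenylalanine, and the copy at residues 187 to 191 by codons for arginine and serine. The other Met-enkephalin copies are followed by codons for pairs of basic residues. The count is thus of matched sequence, not of free peptide.
Penk, Met-enkephalin at residues 100 to 104: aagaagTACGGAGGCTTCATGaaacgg
Penk, Met-enkephalin at residues 262 to 266: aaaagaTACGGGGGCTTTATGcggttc
Penk, Leu-enkephalin at residues 231 to 235: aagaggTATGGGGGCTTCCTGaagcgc
The Pdyn precursor of 248 residues holds 0 copies of Met-enkephalin and 3 of the Leu-enkephalin core with which neoendorphin and the dynorphins begin.
Pdyn, opioid core at residues 166 to 170: aaacgcTATGGCGGCTTTTTGcgcaaa
Pdyn, opioid core at residues 202 to 206: aaacgcTATGGGGGCTTCCTGcggcgc
Pdyn, opioid core at residues 221 to 225: aagcgcTATGGTGGTTTCCTGcggcgt
The Tac1 precursor of 130 residues holds the related ends of substance P and neurokinin A, and the Nts precursor of 169 residues the shared end of neuromedin N and neurotensin.
Tac1, end of substance P at residues 64 to 68: cagcagTTCTTTGGATTAATGggcaag
Tac1, end of neurokinin A at residues 103 to 107: gattccTTTGTTGGACTAATGggcaaa
Nts, end of neuromedin N at residues 144 to 147: aaaatcCCTTATATTCTGaaaagg
Nts, end of neurotensin at residues 159 to 162: agaaggCCCTACATTCTCaagagg

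Bulk libraries held 49237583 to 101295189 counts in the R6/2 series and 8664055 to 11211827 in the zQ175 series, and neuronal libraries 4610476 to 12200813. Levels are given in CPM, a library's counts of a gene scaled to its total. Htt, the repressors' target, had 222 to 277 CPM in R6/2 N-Delta libraries and 121 to 177 CPM in NCAR N-Delta libraries. In R6/2 N-ZFP libraries it had 159 to 257 CPM, and it had 223 to 268 CPM in R6/2 A-ZFP libraries, against 247 to 257 CPM in R6/2 A-Delta libraries. In zQ175 bulk libraries it had 192 to 258 CPM under N-ZFP and 196 to 217 CPM under N-Delta, and in zQ175 neuronal libraries 245 to 341 CPM and 267 to 348 CPM. These counts do not separate mutant from normal Htt, and the R6/2 transgene is human, so they do not check the knockdown. In the WT N-Delta groups neuronal libraries were low in glial RNA. There the summed level of 10 microglial markers was 19.5 to 23.2 CPM in neuronal libraries, against 411 to 548 CPM in bulk libraries, and that of 12 astrocyte markers 1774 to 2794 CPM against 6776 to 7457 CPM. Some libraries stood apart. Neuronal N-ZFP libraries 1 and 3 of zQ175 mice had 2.51% and 4.31% of counts from mitochondrial genes, against 0.167% to 1.05% in the other neuronal libraries, and were the shallowest of their group. Neuronal N-ZFP libraries 1 and 3 of WT mice were also high, at 0.801% and 1.05%, against 0.216% and 0.229% in libraries 2 and 4. Their microglial markers summed to 34.1 and 36.5 CPM, against 23.2 and 23 CPM. Among bulk libraries, the hypothalamic peptide gene Pmch reached 6.73 and 27.7 CPM in NCAR N-Delta libraries 1 and 4 and 5.9 CPM in R6/2 N-ZFP library 1, against 0 to 0.0157 CPM in R6/2 N-Delta libraries. Other libraries held some of it, such as NCAR A-ZFP library 2 (3.39 CPM) and NCAR N-ZFP library 2 (2.98 CPM). Avp, another hypothalamic peptide gene, had 19.4 CPM in NCAR N-Delta library 4 and 16.7 CPM in NCAR N-ZFP library 3.

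Per kilobase of exon, the order of the 5 levels by group mean was the same in all 16 groups, with Penk highest, then Tac1, Pdyn, Nts and Cartpt. In WT N-Delta bulk libraries, for example, the mean levels were 500 CPM per kb for Penk, 48.9 for Tac1, 36.3 for Pdyn, 4.07 for Nts and 2.08 for Cartpt. Penk stood above Tac1 without overlap in every group. Tac1 and Pdyn overlapped among the libraries of NCAR A-ZFP, WT N-ZFP neuronal and zQ175 N-ZFP neuronal, and Pdyn overlapped with Nts in R6/2 N-ZFP alone. The lowest pair, Nts and Cartpt, overlapped in all 4 NCAR groups, in R6/2 N-ZFP and in both WT N-Delta groups, and lay apart in the other groups.

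**Figure D1:**
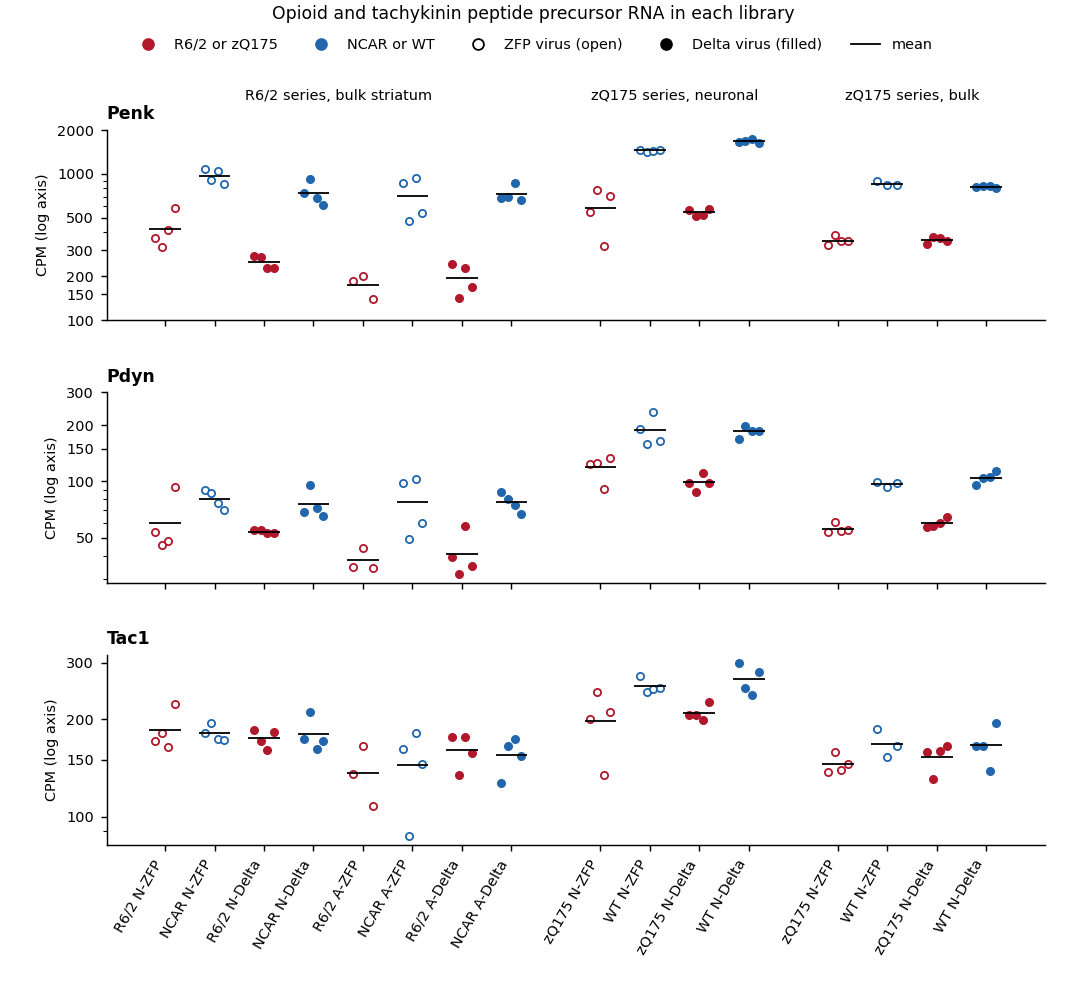
CPM of Penk, Pdyn and Tac1 on a log axis in each library (points) of the 16 groups, with the group mean as a bar. R6/2 and zQ175 libraries are red, NCAR and WT blue, ZFP viruses open and Delta viruses filled. Penk lay lower in all R6/2 and zQ175 groups than in their NCAR or WT counterparts, while the points of Tac1 overlapped in the R6/2 series.

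The first question was what the mutation did to each precursor under a control virus. Penk, the enkephalin precursor of the indirect pathway, was lower in every mutant group. It had 243, 141, 228 and 169 CPM in R6/2 A-Delta libraries, against 688, 701, 865 and 669 CPM in NCAR A-Delta libraries. Under N-Delta it had 273, 271, 229 and 226 CPM in R6/2 mice and 737, 928, 687 and 610 CPM in NCAR mice. No R6/2 library reached the lowest NCAR library in either set. By edgeR's quasi-likelihood test with Benjamini-Hochberg adjustment over all genes, the log2 fold change was −2.05 ± 0.22 (SE, adjusted p = 4.71e-08) under A-Delta and −1.61 ± 0.21 (adjusted p = 1.03e-06) under N-Delta. Of the 5 precursors 3 were called lower under A-Delta, where 28.9% of all genes tested were called, and 3 under N-Delta, where 55.5% were. In bulk tissue, fewer cells of a type and less RNA per cell cannot be told apart. The summed level of 10 pan-neuronal markers was 6264 to 7247 CPM in R6/2 A-Delta libraries and 7475 to 8239 CPM in NCAR A-Delta libraries. Markers of other cells differed as well: 12 astrocyte markers summed to 5080 to 5205 CPM in R6/2 and 6658 to 7198 CPM in NCAR, 10 oligodendrocyte markers to 4843 to 6825 CPM and 7355 to 9166 CPM, and 10 vascular markers to 368 to 412 CPM and 277 to 349 CPM. None of these 4 sums overlapped, no marker was at 0 throughout a group, and their part in the result was not tested.

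In zQ175 striatum Penk had 333, 368, 365 and 347 CPM in bulk N-Delta libraries, against 821, 823, 825 and 797 CPM in WT. In the neuronal libraries it had 567, 520, 528 and 575 CPM in zQ175 mice and 1657, 1677, 1746 and 1641 CPM in WT mice. Neither pair of groups overlapped, and libraries within a group differed little. The log2 fold change was −1.29 ± 0.06 (adjusted p = 1.55e-11) in bulk RNA, with 3 of the 5 precursors called and 16% of all genes, and −1.72 ± 0.19 (adjusted p = 2.02e-05) in neuronal RNA, with 2 of 5 called and 9.36% of all genes. Pan-neuronal markers summed to 5589 to 5662 CPM in zQ175 and 5480 to 5729 CPM in WT bulk libraries, and astrocyte markers to 5927 to 6633 CPM and 6776 to 7457 CPM without overlap, whose part was not tested. The difference of the neuronal from the bulk effect of zQ175 on Penk was −0.41 ± 0.22 on the log2 scale and did not pass the test (adjusted p = 1). For that difference edgeR called 0 of the 5 precursors and 0% of all genes, with 0 of the 5 at an unadjusted p under 0.05 and 0 called by DESeq2.

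Pdyn, the dynorphin precursor of the direct pathway, was lower as well, by less than Penk in each of the 4 comparisons. R6/2 A-Delta libraries had 39.4, 31.7, 58 and 35 CPM and NCAR A-Delta libraries 87.3, 80, 74.8 and 66.8 CPM. Under N-Delta the R6/2 libraries had 54.7, 55, 52.6 and 52.6 CPM, against 68.2, 95.6, 72.3 and 65.6 CPM in NCAR mice. All R6/2 libraries lay below all NCAR libraries in both sets. The log2 fold change was −1.06 ± 0.22 (adjusted p = 0.000584) under A-Delta and −0.54 ± 0.22 (adjusted p = 0.0401) under N-Delta. The N-Delta call was lost on leaving out any 1 of 6 of the 8 libraries, with values from −0.59 to −0.40 and the smallest without NCAR library 2; the call stayed without NCAR library 1 or 4. It was −1.01 (adjusted p = 0.00725) with the length index of a library as a covariate. That index, the correlation over genes of a library's deviation in level with transcript length, was 0.219 ± 0.060 (SD) in R6/2 N-Delta and −0.351 ± 0.104 in NCAR N-Delta libraries. It is computed from the same counts and did not overlap between these groups, so index and genotype cannot be told apart there. In zQ175 N-Delta libraries Pdyn averaged 59.7 ± 3.43 CPM in bulk RNA, against 105 ± 7.25 CPM in WT (SD, n = 4 each), and 98.8 ± 9.58 CPM in neuronal RNA, against 186 ± 12.4 CPM in WT. These groups did not overlap. It changed by −0.89 ± 0.06 on the log2 scale (adjusted p = 6.28e-09) in bulk and −1.01 ± 0.13 (adjusted p = 0.000128) in neuronal RNA.

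Tac1, the other precursor of the direct pathway, was near its NCAR level in R6/2 striatum. It had 176, 135, 177 and 157 CPM in R6/2 A-Delta libraries and 127, 166, 174 and 154 CPM in NCAR A-Delta libraries. Under N-Delta it had 186, 171, 161 and 183 CPM in R6/2 and 174, 211, 162 and 172 CPM in NCAR libraries. The groups overlapped in both sets. The log2 fold change was −0.09 ± 0.16 under A-Delta, with a 95% interval from −0.41 to 0.22 (adjusted p = 0.723), and −0.09 ± 0.16 under N-Delta, with an interval from −0.40 to 0.23 (adjusted p = 0.67). These intervals leave out a fall as large as that of Penk but not a small change. In zQ175 N-Delta mice Tac1 had 158, 131, 160 and 165 CPM in bulk libraries, against 166, 166, 138 and 195 CPM in WT, and the groups overlapped. Neuronal libraries had 207, 207, 199 and 227 CPM in zQ175 mice, against 298, 250, 238 and 280 CPM in WT, with every zQ175 library below every WT library. The log2 fold change was −0.20 ± 0.09 (adjusted p = 0.151) in bulk RNA and −0.45 ± 0.14 (adjusted p = 0.0553) in neuronal RNA. The neuronal value passed under 4 alternatives: −0.44 (adjusted p = 0.0313) with a replicate block, −0.45 (adjusted p = 0.034) with DESeq2, −0.44 (adjusted p = 0.000677) with these groups fitted alone and −0.42 (adjusted p = 0.00698) with a length covariate. The bulk value passed as −0.28 (adjusted p = 0.00648) with that covariate, and as −0.27 (adjusted p = 0.0427) without WT library 3.

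**Figure D2:**
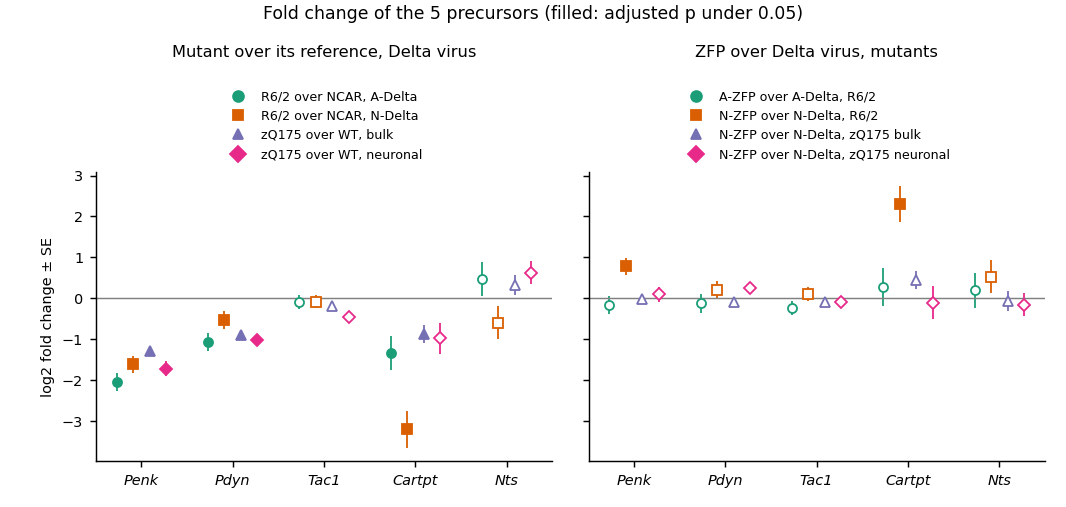
Log2 fold change with SE (edgeR) of the 5 precursors in mutant over NCAR or WT mice under the Delta viruses (left) and in ZFP over Delta virus in the mutants (right). Filled symbols passed an adjusted p under 0.05, as Penk and Pdyn did in all 4 comparisons on the left. Only Penk and Cartpt in R6/2 mice under N-ZFP were filled on the right.

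Ratios between precursors within a library do not depend on its depth or scaling. They can still carry a library's bias by transcript length, since the longest transcripts have 1449 bases for Penk, 1975 for Tac1 and 2386 for Pdyn. The ratios were not tested against the length index. They are ratios of counts, not corrected for gene length, with 0.5 counts added before taking the log2. The ratio of Penk to Tac1 was 1.05 to 1.38 in R6/2 A-Delta libraries, against 4.23 to 5.44 in NCAR A-Delta libraries, and 1.23 to 1.58 in R6/2 N-Delta libraries, against 3.54 to 4.39 in NCAR N-Delta libraries. In zQ175 N-Delta mice it was 2.1 to 2.8 in bulk libraries, against 4.08 to 6 in WT, and 2.51 to 2.73 in neuronal libraries, against 5.56 to 7.33 in WT. In all 4 comparisons every mutant library lay below every NCAR or WT library. The log2 differences were −1.99 ± 0.13, −1.52 ± 0.10, −1.10 ± 0.15 and −1.28 ± 0.10 (SE) in this order.

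The ratio of Penk to Pdyn was lower too. Its log2 difference was −0.98 ± 0.18 under A-Delta and −1.08 ± 0.08 under N-Delta in R6/2 mice, and −0.40 ± 0.08 in bulk and −0.71 ± 0.09 in neuronal RNA of zQ175 mice. Pdyn to Tac1, both of the direct pathway, was also lower, at −1.0 ± 0.21, −0.44 ± 0.08, −0.70 ± 0.12 and −0.57 ± 0.15 in the same order. In none of these did the groups overlap. By a two-sided exact permutation test each of these 12 differences had p = 0.0286, the smallest that 4 against 4 libraries allow. Over the 36 ratio tests made, with ZFP comparisons included, 15 had an unadjusted p under 0.05, the smallest adjusted p was 0.0686 and no ratio passed 0.05 after adjustment.

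**Figure D3:**
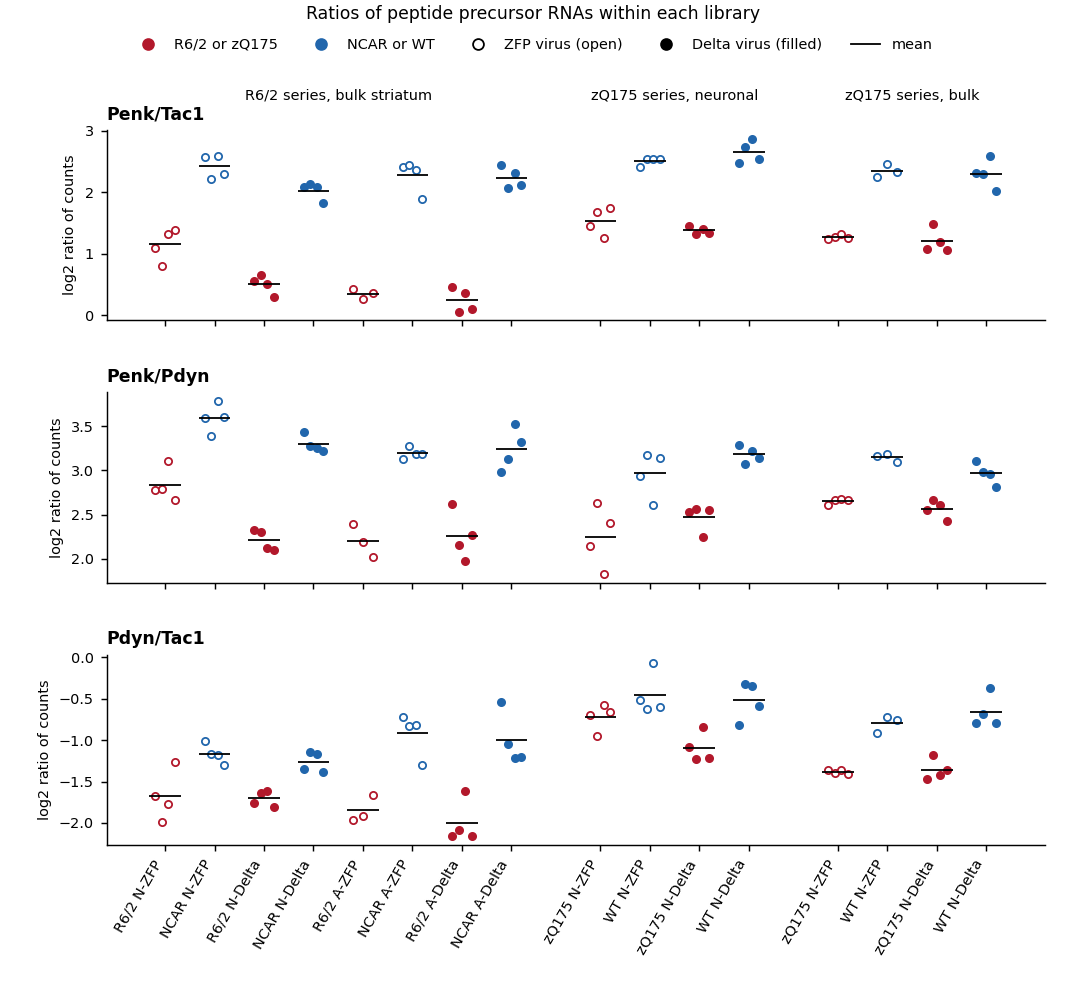
Log2 ratio of counts of Penk to Tac1, Penk to Pdyn and Pdyn to Tac1 in each library, with the group mean as a bar and colours by genotype and fill by virus. Under the Delta viruses the R6/2 and zQ175 points lay below those of NCAR and WT for all 3 ratios, and the R6/2 N-ZFP points lay above the R6/2 N-Delta points for Penk to Tac1 and Penk to Pdyn, as the NCAR N-ZFP points did above NCAR N-Delta for Penk to Tac1.

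Cartpt and Nts were scarce, and their mutant libraries behaved differently. Cartpt had 3.97, 1.24, 1.43 and 0.729 CPM in R6/2 A-Delta libraries and 4.65, 3.79, 3.42 and 5.21 CPM in NCAR A-Delta libraries, with R6/2 library 1 inside the NCAR range. Under N-Delta it had 0.503, 1.66, 1.28 and 0.915 CPM in R6/2 libraries and 11.6, 8.31, 9.28 and 9.61 CPM in NCAR libraries, far apart. Cartpt had a log2 fold change of −1.34 ± 0.43 (adjusted p = 0.0185) under A-Delta. That call was lost on leaving out NCAR library 4 or R6/2 library 2, 3 or 4, with −1.08 as the smallest value, and without R6/2 library 1 the value was −2.05. Under N-Delta it was −3.21 ± 0.46 (adjusted p = 3.08e-06), and −2.15 (adjusted p = 0.00513) with the length covariate. Length index and genotype cannot be told apart there. The summed level of the 14 hypothalamic markers in the table, out of a list of 15, was 3.51 to 4.34 CPM in R6/2 A-Delta and 7.33 to 9.35 CPM in NCAR A-Delta libraries, and 3.49 to 5.3 CPM in R6/2 N-Delta and 10.4 to 67.6 CPM in NCAR N-Delta libraries. Neither pair overlapped, no marker was at 0 throughout any of these groups, and the part of these markers in the Cartpt values was not tested. Without NCAR N-Delta libraries 1 and 4 the Cartpt value was −3.06 (adjusted p = 9.76e-05).

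In bulk libraries of zQ175 N-Delta mice Cartpt had 1.40, 1.56, 1.31 and 1.85 CPM, against 2.59, 2.77, 2.85 and 2.43 CPM in WT. The groups lay apart, at a log2 fold change of −0.88 ± 0.21 (adjusted p = 0.00749). In neuronal libraries, with 0.988 to 2.28 CPM in zQ175 and 1.63 to 4.07 CPM in WT mice, the groups overlapped and −0.98 ± 0.37 did not pass (adjusted p = 0.124; with these groups fitted alone, −0.94 and adjusted p = 0.0413). Nts passed in none of the 4 genotype comparisons. It had 13, 9.2, 9.59 and 9 CPM in R6/2 A-Delta libraries and 7.09, 8.31, 8.38 and 3.05 CPM in NCAR A-Delta libraries, with all R6/2 libraries higher. Its log2 fold changes were 0.47 ± 0.41 (adjusted p = 0.433) there, −0.60 ± 0.41 (adjusted p = 0.215) under N-Delta, 0.32 ± 0.25 (adjusted p = 0.429) in zQ175 bulk and 0.63 ± 0.29 (adjusted p = 0.214) in zQ175 neuronal RNA.

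**Figure D4:**
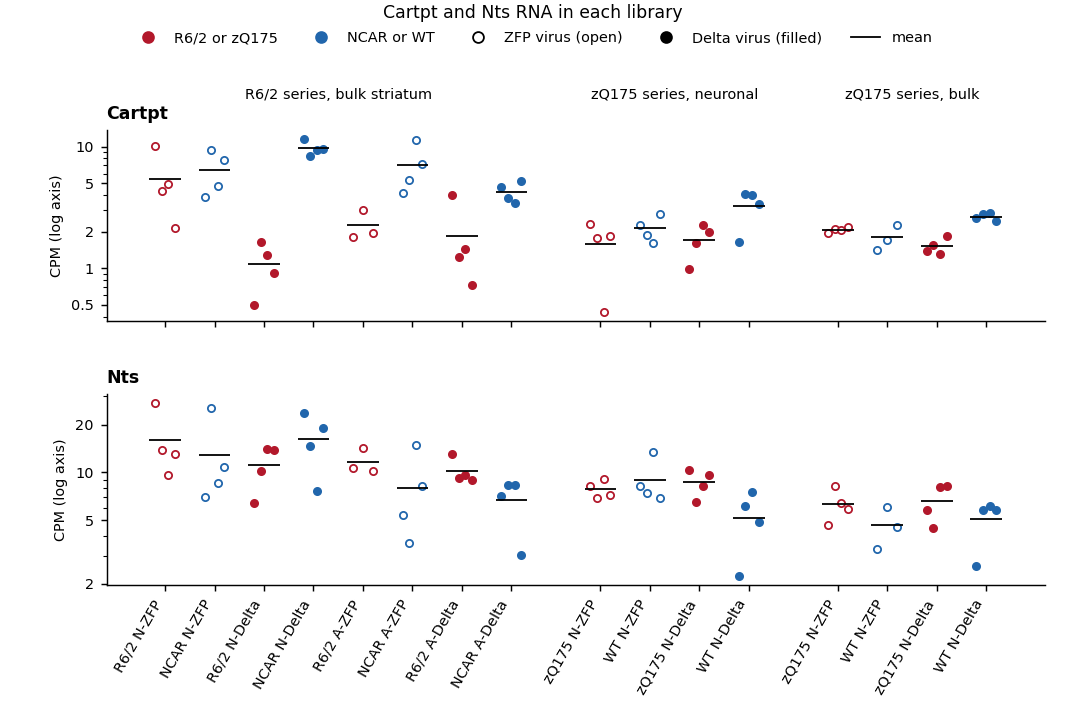
CPM of Cartpt and Nts on a log axis in each library, with the group mean as a bar and colours by genotype and fill by virus. Cartpt lay at 2.15 to 10.1 CPM in R6/2 N-ZFP libraries and at 0.503 to 1.66 CPM in R6/2 N-Delta libraries, while the Nts points of most groups overlapped.

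Cartpt responds to cyclic AMP through a CRE in its promoter in rodents, and since its log2 fold change in R6/2 N-Delta mice was the largest of the 5, the promoter is shown. The 250 bases before the RefSeq start (GRCm38.p6, chr13:99900684-99900933, minus strand) hold a full CRE, in capitals, at bases −112 to −105 from the start. The annotation used for the counts lets the gene begin further upstream, so this window lies within the annotated gene.
Cartpt: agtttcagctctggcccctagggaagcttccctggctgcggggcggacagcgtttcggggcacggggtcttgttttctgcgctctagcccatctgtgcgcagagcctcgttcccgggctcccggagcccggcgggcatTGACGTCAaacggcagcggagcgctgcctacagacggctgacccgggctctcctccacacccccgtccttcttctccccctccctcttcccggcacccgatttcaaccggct
The search was on both strands for the CRE TGACGTCA, its core TGACG, which also lies in every CRE, and the AP-1 site TGANTCA. Of 32851 mouse promoter windows of this length, 1.55% held the CRE, 17.8% the core and 6.75% the AP-1 site. Tac1 held the core at −197 to −193 and at −43 to −39, Nts the core and an AP-1 site, and both Pdyn windows none of the 3. Promoters were matched for 4 of the 5 genes, all but Penk. These are matches of letters and nothing about binding was measured.

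Neuronal over bulk RNA was compared in the N-Delta groups of the zQ175 series, where the libraries differ in how the RNA was taken. No label says whether a bulk and a neuronal library of the same number came from the same animal. Column names in this series mark bulk RNA with the word Input and neuronal RNA with IP, so same-numbered libraries may be pairs. In WT mice the deviations of same-numbered libraries from the group mean correlated at 0.044 to 0.306 (mean 0.219, against −0.072 for other numbers). In zQ175 mice the range was −0.028 to 0.120 (mean 0.048, against −0.016). The test treats all libraries as separate, with a replicate block as an alternative. Penk, Pdyn and Tac1 were higher in neuronal RNA. In WT mice the log2 fold changes were 1.12 ± 0.15 for Penk, 0.91 ± 0.11 for Pdyn and 0.77 ± 0.13 for Tac1 (adjusted p = 8.18e-07, 1.18e-07 and 2.45e-05), 3 of 5 called where 55.9% of all genes were. In zQ175 mice they were 0.72 ± 0.15, 0.81 ± 0.11 and 0.54 ± 0.13, again 3 of 5 with 50% of all genes called, and Tac1 was 0.96 (adjusted p = 2.63e-05) with the length covariate. The neuronal and bulk libraries did not overlap for any of these 3. Cartpt at 0.37 ± 0.28 and Nts at 0.12 ± 0.29 in WT mice did not pass (adjusted p = 0.258 and 0.749), nor did either in zQ175 mice, at 0.30 ± 0.31 and 0.45 ± 0.28.

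The second question was whether the precursors differed between the ZFP viruses and their control viruses. With A-ZFP none of the 5 precursors passed. R6/2 A-ZFP libraries had 184, 201 and 139 CPM of Penk, against 141 to 243 CPM in R6/2 A-Delta libraries, and the groups overlapped. Pdyn had 34.9, 43.9 and 34.2 CPM, against 31.7 to 58 CPM, and Tac1 136, 166 and 108 CPM, against 135 to 177 CPM. The log2 fold changes were −0.17 ± 0.23 for Penk, −0.13 ± 0.24 for Pdyn and −0.24 ± 0.17 for Tac1, and the interval for Penk ran from −0.61 to 0.28. By edgeR, 0 of the 5 were called, 0 had an unadjusted p under 0.05 and DESeq2 called 0, where 0.0322% of all genes were called. In NCAR mice the count was likewise 0 by edgeR, at an unadjusted p under 0.05 and by DESeq2 (0.0184% of all genes), although NCAR A-ZFP libraries ranged from 474 to 941 CPM of Penk, against 669 to 865 CPM in NCAR A-Delta libraries. The difference of the A-ZFP effect between R6/2 and NCAR mice passed for 0 of the 5 by edgeR, at an unadjusted p under 0.05 and by DESeq2, and for 0% of all genes. Under A-ZFP the genotype difference was −2.16 ± 0.24 for Penk, −1.18 ± 0.24 for Pdyn and −1.77 ± 0.47 for Cartpt, with 3 of 5 precursors and 22.3% of all genes called.

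With N-ZFP, Penk and Cartpt were higher in R6/2 striatum. Penk had 367, 316, 413 and 587 CPM in R6/2 N-ZFP libraries, against 273, 271, 229 and 226 CPM in R6/2 N-Delta libraries, and Cartpt had 10.1, 4.34, 4.96 and 2.15 CPM, against 0.503, 1.66, 1.28 and 0.915 CPM. For both, every N-ZFP library lay above every N-Delta library, and the N-ZFP libraries were the more spread. On the log2 scale N-ZFP over N-Delta was 0.78 ± 0.21 for Penk (adjusted p = 0.0146) and 2.31 ± 0.45 for Cartpt (adjusted p = 0.00126), 2 of 5 called where 13.1% of all genes were. Leaving out any 1 library left both called, at 0.54 to 0.91 for Penk and 1.84 to 2.57 for Cartpt. With these groups fitted alone Penk was 0.79 with an adjusted p = 0.0624. The hypothalamic markers summed to 5.07 to 21.6 CPM in R6/2 N-ZFP libraries and 3.49 to 5.3 CPM in R6/2 N-Delta libraries, highest in library 1, which also had the most Cartpt. Without that library Cartpt was 1.84 (adjusted p = 0.011) and Penk 0.87 (adjusted p = 0.0179).

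The direct-pathway precursors did not pass under N-ZFP in R6/2 mice. Pdyn had 53.6, 45.8, 48 and 92.8 CPM in R6/2 N-ZFP libraries and 52.6 to 55 CPM in R6/2 N-Delta libraries, with library 4 alone far above. Tac1 had 171, 182, 164 and 223 CPM, against 161 to 186 CPM. The log2 fold changes were 0.20 ± 0.22 for Pdyn (interval −0.24 to 0.63, adjusted p = 0.57) and 0.10 ± 0.16 for Tac1 (interval −0.21 to 0.42, adjusted p = 0.69). Nts at 0.53 ± 0.41 did not pass either (adjusted p = 0.385). Within libraries, Penk to Tac1 was 1.74 to 2.63 in R6/2 N-ZFP mice and 1.23 to 1.58 in R6/2 N-Delta mice, and Penk to Pdyn 6.33 to 8.61 and 4.29 to 5. The log2 differences were 0.65 ± 0.16 and 0.62 ± 0.11, without overlap (exact permutation p = 0.0286, adjusted p = 0.0686 for each), and the ratio of Penk to Tac1 stayed below the 3.54 to 4.39 of NCAR N-Delta libraries. In NCAR mice Penk to Tac1 was likewise apart, at 4.67 to 6.06 under N-ZFP and 3.54 to 4.39 under N-Delta, a log2 difference of 0.40 ± 0.12 with the same exact permutation p = 0.0286 and adjusted p = 0.0686. Penk to Pdyn in NCAR mice, at 10.5 to 13.8 and 9.29 to 10.8, differed by 0.30 ± 0.09 with overlap (exact permutation p = 0.0571, adjusted p = 0.121). Whether the shift in these ratios differed between R6/2 and NCAR mice was not tested. Nor were the ratios tested against the length index, whose mean was −0.036 in R6/2 N-ZFP and 0.219 in R6/2 N-Delta libraries. The index ran from −0.35 to 0.40 in R6/2 N-ZFP libraries, on both sides of the 0.18 to 0.31 in R6/2 N-Delta libraries. In NCAR mice its mean was −0.042 under N-ZFP and −0.351 under N-Delta.

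In NCAR mice N-ZFP gave 1086, 911, 1053 and 852 CPM of Penk, against 737, 928, 687 and 610 CPM under N-Delta, which overlapped. Its log2 fold change of 0.44 ± 0.21 did not pass (adjusted p = 0.123), and edgeR called 0 of the 5 precursors, with 1 at an unadjusted p under 0.05 and 0 by DESeq2, where 22.0% of all genes were called. The N-ZFP effect on Penk in R6/2 minus that in NCAR was 0.35 ± 0.29 (adjusted p = 0.368), so the effects were not shown to differ. For Cartpt it was 2.87 ± 0.61 (adjusted p = 0.0028), 1 of 5 called where 32.3% of all genes were. It was 1.80 (adjusted p = 0.199) with the length covariate and 2.40 (adjusted p = 0.0103) without R6/2 N-ZFP library 1. In NCAR mice Cartpt had 3.86, 9.45, 4.71 and 7.79 CPM under N-ZFP, against 8.31 to 11.6 CPM under N-Delta. With both genotypes under N-ZFP, Penk was still lower in R6/2 mice, at −1.27 ± 0.21 (adjusted p = 0.000252), 1 of 5 called where 7.34% of all genes were. Pdyn at −0.48 ± 0.22 (adjusted p = 0.218) did not pass, but did without R6/2 N-ZFP library 4, at −0.81 (adjusted p = 0.00815).

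In zQ175 mice N-ZFP moved none of the 5 past the test. Bulk Penk had 325, 383, 346 and 349 CPM in zQ175 N-ZFP libraries, against 333, 368, 365 and 347 CPM in zQ175 N-Delta libraries, and the log2 fold change of −0.01 ± 0.06 had an interval from −0.12 to 0.10. Pdyn was −0.10 ± 0.06 and Tac1 −0.08 ± 0.09. Cartpt had 1.95, 2.11, 2.06 and 2.19 CPM, against 1.31 to 1.85 CPM, all higher, at 0.44 ± 0.22 (adjusted p = 0.939). By edgeR 0 of 5 were called, 0 had an unadjusted p under 0.05 and DESeq2 called 0, where 0% of all genes were called. In WT bulk libraries edgeR called 0 of 5, with 1 at an unadjusted p under 0.05 and 0 by DESeq2, where 0% of all genes were called. That 1 was Cartpt, with 1.41 to 2.28 CPM under N-ZFP and 2.43 to 2.85 CPM under N-Delta (−0.53 ± 0.23, adjusted p = 0.544). Penk lay apart there too, at 836 to 891 CPM under N-ZFP and 797 to 825 CPM under N-Delta, but 0.10 ± 0.06 did not pass (adjusted p = 0.685). The difference of the effect between zQ175 and WT called 0 of 5 by edgeR and DESeq2 and 0% of all genes, with 1, Cartpt at 0.97 ± 0.32, at an unadjusted p under 0.05. Under N-ZFP the genotype difference in bulk RNA was −1.40 ± 0.06 for Penk, −0.91 ± 0.07 for Pdyn and −0.33 ± 0.10 for Tac1 (adjusted p = 0.0312), 3 of 5 called where 12.9% of all genes were. The call of Tac1 was lost on leaving out WT library 1 or 4 or zQ175 library 1, 3 or 4, with values from −0.40 to −0.24 over all 7 libraries.

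In neuronal RNA of zQ175 mice, Penk had 550, 776, 323 and 708 CPM in N-ZFP libraries, against 567, 520, 528 and 575 CPM in N-Delta libraries. The N-ZFP libraries lay on both sides, libraries 1 and 3, of high mitochondrial share, being the lower pair. Fitted values on the log2 scale were 0.10 ± 0.18 for Penk (adjusted p = 0.725), 0.26 ± 0.13 for Pdyn (adjusted p = 0.199) and −0.09 ± 0.14 for Tac1 (adjusted p = 0.66). By edgeR 0 of 5 were called, with 0 at an unadjusted p under 0.05 and 0 by DESeq2, where 0.329% of all genes were called. Without neuronal N-ZFP libraries 1 and 3 of both genotypes, Penk was 0.44 ± 0.06 (adjusted p = 0.00141) and Pdyn 0.39 ± 0.08 (adjusted p = 0.0246), both passing with 2 libraries left in the N-ZFP group, and Tac1 0.11 ± 0.09 (adjusted p = 0.698). Choroid plexus and ependymal markers, 8 of 8 in the table, summed to 78.4 to 392 CPM in zQ175 N-ZFP and 55.5 to 73.2 CPM in zQ175 N-Delta neuronal libraries, with none at 0 throughout a group. The 10 microglial markers summed to 27.2 to 103 CPM and 22.1 to 29.2 CPM in these groups, again with none at 0 throughout a group. Oligodendrocyte markers, 10 of 10 in the table, summed to 3371, 2507, 5911 and 3105 CPM in the N-ZFP libraries and 2286 to 3403 CPM in the N-Delta libraries, so that library 3 was within the 5810 to 7503 CPM of zQ175 N-ZFP bulk libraries. Pan-neuronal markers summed to 5488 to 8706 CPM and 8254 to 8622 CPM. The part of these markers in the peptide values was not tested.

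In WT neuronal libraries Penk had 1458, 1422, 1448 and 1465 CPM under N-ZFP, below the 1641 to 1746 CPM under N-Delta without overlap, yet −0.24 ± 0.18 did not pass (adjusted p = 0.907). There edgeR called 0 of 5, with 1 at an unadjusted p under 0.05 (Nts, 0.77 ± 0.28, adjusted p = 0.645) and 0 by DESeq2, where 0.126% of all genes were called. The difference of the neuronal effect between zQ175 and WT called 0 of 5 by edgeR and DESeq2 and 0% of all genes, with 1 at an unadjusted p under 0.05 (Nts, −0.92 ± 0.40). Without neuronal N-ZFP libraries 1 and 3, that difference was 0.68 for Penk (adjusted p = 0.0121). Neuronal minus bulk effects of N-ZFP in zQ175 mice called 0 of 5 by edgeR, at an unadjusted p under 0.05 and by DESeq2, where 0.0621% of all genes were called; without those libraries Penk, at 0.44 (adjusted p = 0.0145), and Pdyn, at 0.48 (adjusted p = 0.0405), passed. Under N-ZFP the genotype difference in neuronal RNA was −1.38 ± 0.19 for Penk and −0.74 ± 0.13 for Pdyn, 2 of 5 called where 8.96% of all genes were. The call of Pdyn was lost with these groups fitted alone (−0.74, adjusted p = 0.0757), and without N-ZFP libraries 1 and 3 its value was −0.40 (adjusted p = 0.0221). Tac1 at −0.44 ± 0.14 (adjusted p = 0.0577) passed with a replicate block, at −0.46 (adjusted p = 0.0275), with DESeq2, at −0.45 (adjusted p = 0.0333), and with the length covariate, at −0.44 (adjusted p = 0.00476). It also passed without zQ175 library 2, at −0.58 (adjusted p = 0.0126), or 4, at −0.48 (adjusted p = 0.0488).

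The control viruses themselves were compared in the R6/2 series, where virus and set of animals cannot be told apart. N-Delta over A-Delta in NCAR mice gave higher Cartpt, at 8.31 to 11.6 CPM against 3.42 to 5.21 CPM (log2 fold change 1.11 ± 0.41, adjusted p = 0.0356). Nts was higher there too, at 7.63 to 23.7 CPM against 3.05 to 8.38 CPM (1.22 ± 0.41, adjusted p = 0.0226), and these groups overlapped. These were 2 of 5 called where 37.0% of all genes were. With the length covariate Cartpt was 0.27 and Nts 0.50, and without NCAR N-Delta libraries 1 and 4 they were 0.97 and 0.66, and neither passed under either. The length index did not overlap between NCAR N-Delta and NCAR A-Delta libraries, so index and virus cannot be told apart there. Leaving out 1 library ended the call of Cartpt for 6 of the 8 libraries (NCAR A-Delta 1, 2 and 3, NCAR N-Delta 1, 3 and 4) and that of Nts for 3 (NCAR A-Delta 4, NCAR N-Delta 1 and 4). The hypothalamic markers summed to 10.4 to 67.6 CPM in NCAR N-Delta and 7.33 to 9.35 CPM in NCAR A-Delta libraries. In R6/2 mice 0 of 5 passed by edgeR, at an unadjusted p under 0.05 and by DESeq2, and 0% of all genes were called.

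Other genes of the same neurons were counted from lists of genes known in them, to be read against the 28.9% of all genes called in R6/2 over NCAR under A-Delta, 16% in zQ175 over WT bulk RNA and 9.36% in zQ175 over WT neuronal RNA. In R6/2 A-Delta striatum, 17 of 20 genes shared by both kinds of projection neuron fell and 0 rose, with a median log2 fold change of −1.27, against 0.02 over all genes tested. Scn4b, a sodium channel subunit, was −3.41 ± 0.33 and Ppp1r1b, which encodes the dopamine signalling protein DARPP-32, −1.86 ± 0.21 on the log2 scale. Of 6 measured indirect-pathway genes 3 fell and 0 rose, namely the adenosine receptor Adora2a (−1.83 ± 0.27), the orphan receptor Gpr6 (−1.55 ± 0.23) and Drd2 (−1.51 ± 0.30). Of 8 direct-pathway genes 3 fell, among them Drd1 (−1.43 ± 0.16) and the muscarinic receptor Chrm4 (−1.39 ± 0.19), and 1 rose. Drd1 fell in the same libraries in which Tac1 did not pass. In zQ175 N-Delta bulk RNA, 20 of 20 shared genes fell (median −0.79, all genes 0.00), with 4 of 6 indirect-pathway genes down and 0 up, and 3 of 8 direct-pathway genes down and 1 up. Adora2a was −1.26 ± 0.09, Drd2 −1.02 ± 0.08 and Drd1 −1.02 ± 0.08. In neuronal RNA 18 of 20 shared genes, 4 of 6 indirect-pathway genes and 2 of 8 direct-pathway genes fell and none of these lists had a rise.

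Receptors of the peptides were on a list of 9. In R6/2 A-Delta striatum 6 of 9 fell and 1 rose. Oprk1, the kappa receptor for dynorphin, had 10.4 CPM in R6/2 A-Delta and 33.3 CPM in NCAR A-Delta libraries on average (−1.82 ± 0.15), and Oprd1, the delta receptor for enkephalin, 9.86 and 21.5 CPM (−1.27 ± 0.26). In zQ175 bulk RNA 4 of 8 fell and 0 rose, with Oprd1 at −0.83 ± 0.09 and Oprk1 at −0.73 ± 0.10, and in neuronal RNA 2 of 8 fell, the same pair, at −0.78 ± 0.09 and −0.73 ± 0.14. Under N-Delta in R6/2 mice Oprk1 was −1.73 ± 0.15, and N-ZFP over N-Delta in R6/2 mice brought it to 28.9 CPM, against 10.7 CPM (1.45 ± 0.15, adjusted p = 2.04e-07). It was the 1 receptor of 9 called there, where 13.1% of all genes were called. With the length covariate 5 of 9 were called, and the counts over all genes with that covariate are given below.

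Enzymes that cut the precursors went both ways. Of 11 prohormone processing enzymes, 3 fell and 2 rose in R6/2 A-Delta striatum (28.9% of all genes called), 2 fell and 2 rose in zQ175 bulk RNA (16%) and 1 fell in zQ175 neuronal RNA (9.36%). Pcsk2, a convertase that cuts both opioid precursors, was −0.72 ± 0.10, −0.43 ± 0.06 and −0.46 ± 0.11 in these. Cpe, which trims the cut ends, was −0.30 ± 0.07 in R6/2 A-Delta striatum. Among 12 peptide genes of striatal interneurons, 8 fell and 0 rose in R6/2 A-Delta striatum, 5 fell and 0 rose in zQ175 bulk RNA, and in neuronal RNA 0 of 9 measured passed by edgeR, with 1 at an unadjusted p under 0.05. Npy was −0.95 ± 0.12 and Sst −0.91 ± 0.13 in R6/2 A-Delta striatum, and Sst −0.31 ± 0.08 in zQ175 bulk RNA, against −1.29 ± 0.06 for Penk there.

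Among 17 activity-response transcription factors and their partners, 10 fell and 1 rose in both R6/2 A-Delta striatum and zQ175 bulk RNA, and 5 fell and 0 rose in zQ175 neuronal RNA. The early response factor Egr1 was −1.59 ± 0.20, −1.0 ± 0.11 and −0.93 ± 0.20 in these comparisons, and Egr2 −3.33 ± 0.43, −2.21 ± 0.33 and −2.78 ± 0.50. Kcnip3, which encodes DREAM, a calcium-dependent repressor of Pdyn, fell too, at −1.08 ± 0.12, −0.45 ± 0.06 and −0.39 ± 0.09 in the order given.

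In R6/2 over NCAR mice under N-Delta, counts of these lists changed with the length index as a covariate. Index and genotype cannot be told apart there. Of all 21752 genes tested 55.5% were called there, and with the covariate 2275 rose and 2690 fell. The shared genes had 12 of 20 down and 0 up, against 20 of 20 down with the covariate, and the indirect-pathway genes 2 of 6 down and 3 up, against 4 down and 0 up. Interneuron peptides had 11 of 12 down and 0 up, against 5 down. With N-ZFP over N-Delta in R6/2 mice 13.1% of all genes were called, and with the covariate 1534 rose and 866 fell. There 6 shared genes rose and 1 fell, with Scn4b at 1.69 ± 0.31, against 13 and 1 with the covariate. The interneuron peptides had 10 of 12 up and 0 down, against 6 up without R6/2 N-ZFP library 1 and 5 up with the covariate. Pthlh was 1.02 ± 0.17, Sst 0.65 ± 0.13 and Npy 0.56 ± 0.12. Adora2a, the 1 of 6 indirect-pathway genes called, was 0.86 ± 0.26, and Drd1 and Chrm4, 2 of 8 of the direct pathway, were 0.51 ± 0.15 and 0.57 ± 0.19. In zQ175 mice, N-ZFP over N-Delta gave 0 calls by edgeR on these lists, where 0% of all genes were called in bulk and 0.329% in neuronal RNA. At an unadjusted p under 0.05 there were 0 of 20 shared genes in bulk RNA and 7 of 20 in neuronal RNA, 0 of 6 indirect-pathway genes in either, and 0 and 2 of 8 direct-pathway genes. The same counts in bulk and neuronal RNA were 1 and 2 of 8 receptors and 1 and 6 of 11 processing enzymes. They were 2 of 12 and 2 of 9 interneuron peptides and 1 and 4 of 17 activity-response genes, and DESeq2 was not run on the lists. Directions and the share of all genes at that unadjusted threshold are not given here. These counts therefore do not show that the lists differ from other genes. With the length covariate 1 shared gene fell in neuronal RNA. Without neuronal N-ZFP libraries 1 and 3, 1 shared gene rose, 1 fell and 1 indirect-pathway gene rose. Counts over all genes are not given here for these neuronal alternatives, nor for the fit without R6/2 N-ZFP library 1. The list counts under them thus have no background to be read against.

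Genes most like each precursor were sought over the 16 group means of log2 CPM, each centred on its set of libraries, among 12599 genes. They are a description, since all genes share the same libraries. For Penk they were Gpr6 (Pearson r = 0.996), the phosphodiesterase gene Pde1b (0.990) and Ano3 (0.990). For Pdyn they were Car12 (0.988), Man2a1 (0.986) and Gprin3 (0.983). Tac1 had looser neighbours, Fndc9 (0.907), Spag7 (0.864) and the calcium buffer gene Calb1 (0.855). For Cartpt they were Lin7b (0.960), Tmem38a (0.955) and Avpi1 (0.955), and for Nts Khdrbs2 (0.916), Dcun1d5 (0.913) and Erg28 (0.904). Among the precursors themselves, Penk and Pdyn were closest (r = 0.968), while Penk and Tac1 were at 0.555 and Pdyn and Tac1, of the same neurons, at 0.579.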

How the data were processed

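Bulk and neuronal striatal RNA was sequenced in 62 libraries. Per the labels, RNA was taken with RNeasy kits and libraries made with a stranded total RNA kit. STAR (mm10) and HTSeq are named in the submitters' processing notes, per the labels; versions and the strand setting are not given in the sources used here. The authors deposited unnormalized whole-number counts per gene. Gene names and lengths came from GENCODE M21 (48349 of 48795 identifiers matched), coding sequences from its transcripts and promoters from RefSeq (GRCm38.p6).

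Counts were tested with edgeR 4.0.16 in R 4.3.3: TMM normalization, filterByExpr, 1 coefficient per group, quasi-likelihood F tests and Benjamini-Hochberg adjustment over all genes tested, with calls at an adjusted p under 0.05. The 31 R6/2 series libraries shared 1 fit. In the zQ175 series the 15 bulk libraries had a fit of their own, the 16 neuronal ones likewise, and comparisons across the kinds used a joint fit. DESeq2 1.42.0 was an alternative. SE is the log2 fold change over the square root of F, and 95% intervals come from it with the normal multiplier. With few libraries such intervals are somewhat narrow. For Cartpt under N-ZFP in zQ175 bulk RNA the interval was 0.0007 to 0.88, while the F test gave an unadjusted p = 0.0714. In all, 26 comparisons were made. The edgeR fit was tested on simulated counts, for 1 comparison each in the R6/2 bulk, zQ175 bulk and zQ175 neuronal libraries. The joint fit and the alternatives were not tested in this way.

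The 5 genes and the 19 gene lists (211 genes) were chosen with earlier results of these data known. Named from a list are up to 3 genes with the smallest p in that comparison. The likest genes were taken from genes of at least 2 CPM on average, with predicted genes left out. A count of 0 allows up to 3 counts, which is 0.0296 to 0.0609 CPM in the R6/2 series, 0.268 to 0.346 CPM in zQ175 bulk and 0.246 to 0.651 CPM in neuronal libraries, for counting error only. No 2 libraries held identical counts. Same-numbered libraries were checked for pairing by the correlation of their deviations from the group mean: only for zQ175 and WT neuronal N-ZFP libraries did all 4 pairs exceed 0.1 (mean 0.500), and there the replicate block changed the call of Tac1.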

Additional observations from a re-analysis of the deposited data

Results flagged for a closer look

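Over 70 checks of single libraries within a group of 4, 5 found 1 library far from the other 3, where chance gives about 1 in 20. Penk had 865 CPM in NCAR A-Delta library 3, above the others, and 797 CPM in WT N-Delta bulk library 4, below them by a small margin. Pdyn had 92.8 CPM in R6/2 N-ZFP library 4, which also had the most Penk (587 CPM) and Tac1 (223 CPM) of its group. Nts had 13 CPM in R6/2 A-Delta library 1, above the others, and 2.59 CPM in WT N-Delta bulk library 1, below them.

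The effect of N-ZFP on Cartpt differed between the genotypes of the R6/2 series, by 2.87 ± 0.61 on the log2 scale in R6/2 minus NCAR mice (adjusted p = 0.0028, edgeR). This was called where 32.3% of all genes were, and it did not pass with the length covariate. Cartpt was higher in 4 of 4 R6/2 N-ZFP libraries than in any R6/2 N-Delta library, and NCAR N-ZFP libraries overlapped with NCAR N-Delta libraries. The hypothalamic markers summed to 9.8 to 28.5 CPM in NCAR N-ZFP and 10.4 to 67.6 CPM in NCAR N-Delta libraries, and their part was not tested.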

How the results depend on the processing

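Of the fold changes recomputed under alternatives other than leaving out 1 library, 793 stayed on their side of the threshold, 15 newly passed it and 7 no longer passed. Leaving out 1 library gave 1222, 4 and 24. Values that did not pass could change sign and still count as unchanged. Pdyn under N-ZFP in R6/2 mice, at 0.20, fell as low as −0.14 with 1 library left out. No called value changed sign in any of them. Alternatives were size factors of the DESeq2 kind, no filter, the compared groups alone, a replicate block, the length index as covariate, DESeq2 and the removal of doubted libraries. With the groups alone, Penk under N-ZFP in R6/2 mice was 0.79 and no longer passed, and zQ175 neuronal Tac1 (−0.44) and Cartpt (−0.94) passed. The length covariate brought zQ175 Tac1 past the threshold in bulk (−0.28) and neuronal RNA (−0.42), and DESeq2 the neuronal value (−0.45). With the replicate block zQ175 neuronal Tac1 was −0.44 and passed; apart from this and the Tac1 value under N-ZFP, the block added a call for Nts in neuronal over bulk RNA of zQ175 mice (0.47). Without neuronal N-ZFP libraries 1 and 3, Penk (0.44) and Pdyn (0.39) under N-ZFP in zQ175 mice passed. The causes were not tested.

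Leaving out 1 library gave −2.05 to −1.08 for Cartpt in R6/2 over NCAR under A-Delta, −0.59 to −0.40 for Pdyn under N-Delta, and −0.27 to −0.12 for Tac1 in zQ175 bulk RNA. Among the ratios, Penk to Tac1 under N-ZFP in zQ175 bulk RNA ran from 0.0252 to 0.16, Pdyn to Tac1 under A-ZFP in R6/2 mice from 0.0655 to 0.29 and under N-ZFP in zQ175 neuronal RNA from 0.32 to 0.46, with the groups apart in some of these. A pseudocount of 5 left all 36 ratios on their side. The ratio of Pdyn to Tac1 under alternatives, and the list counts under alternatives, were added after seeing the data. Medians in place of means left the order of the 5 levels unchanged in the 16 groups.

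Cartpt and Nts rested on the fewest counts of the 5. Genotype, virus and route were confounded between the series, and A and N viruses between sets of animals. Cell loss and lower RNA per cell cannot be told apart, and counts say nothing of peptide.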
